A study of Mus musculus with 22 samples.

Results

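Most genes named Mrpl and Mrps encode proteins of the mitochondrial ribosome, and chromatin accessibility near them was followed here in liver nuclei of mice with diet-induced steatohepatitis. They were chosen by name alone: every gene whose deposited symbol starts with Mrpl or Mrps and a number, and which had at least 1 ATAC-seq peak within 50 kb of its transcription start. The rule gave 70 genes of 15686 with such a peak, 45 named Mrpl and 25 named Mrps, with 153 peaks of 56777 within that distance and 68827 in all. ATAC-seq counts the cuts that a transposase makes in open chromatin, so the values below describe DNA accessibility and not RNA or protein.

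Nuclei came from livers of 22 male HEP-INTACT mice, in which the hepatocyte nuclei carry a tag and were pulled down before the reaction. Feeding lasted 20 weeks with an FPC diet or 7 weeks with a CDAHFD, a high-fat diet that lacks choline and has its amino acids defined, and each arm had controls kept on low fat food over its own period. Liver histology was what the submitters used to sort diseased mice into mild and advanced steatohepatitis; both had steatosis and inflammation, and fibrosis was a feature of the advanced group. Each arm comprised 4 control, 4 mild and 3 advanced libraries, with no mouse used for more than 1. All 6 groups share the HEP-INTACT background and male sex. The sources used here do not give the ages of the mice, the strain or the promoter that drives the tag, and since the arms differ in both diet and time, those cannot be told apart.

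The mitochondrial ribosome translates the few messages that the mitochondrial genome encodes, all of them subunits of the respiratory chain and ATP synthase. Its RNAs come from mitochondrial DNA, but every one of its proteins is encoded in the nucleus, made in the cytosol and imported, so their genes are spread over the nuclear chromosomes and are transcribed like other housekeeping genes. Proteins named Mrpl sit in the large subunit, which forms peptide bonds, and most of those named Mrps in the small subunit, which decodes the message. Mrps18a and Mrps30 are exceptions, being parts of the large subunit despite their names, and Mrps36 encodes a subunit of the 2-oxoglutarate dehydrogenase complex. Hepatocytes are rich in mitochondria and depend on this machinery for fatty acid oxidation.

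The accessible chromatin of these genes lay mostly at their starts. Of the 70 genes, 65 (92.9%) had a peak within 1 kb of the start, here called a promoter peak, against 75.0% of all genes. A single peak was all that 37 of them had (52.9%, against 30.1% of all genes), and the median was 1 peak per gene against 2. Promoter peaks alone were found at 42 genes, both promoter and more distant (distal) peaks at 23, and distal peaks alone at 5, which were Mrpl27, Mrpl37, Mrps6, Mrps11 and Mrps27. Mrpl14, the large-subunit protein to which the assembly factor Malsu1 binds, had the most peaks (10). RefSeq lists 78 protein-coding genes with such names, and Mrpl21, Mrpl43, Mrpl47, Mrpl49, Mrps18c, Mrps21, Mrps26 and Mrps5, which had no row under these names, were not analysed here.

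Promoter sequence was available from RefSeq (build GRCm38.p6, 250 bases before to 50 after the start) for 56 of the 65 genes with a promoter peak and for 9033 of 11758 genes of any kind. Exact matches on either strand were counted for the letters GCGCATGCG (the site of NRF1, a regulator of nuclear genes for mitochondria), CCGGAAG (an ETS site of the kind that GABP binds), AAGATGGCG (YY1) and GGGCGG (GC box). The TATA box was searched as the letters TATAAA. None of these words contains another. NRF1 letters were in 12.5% of Mrpl and Mrps promoters against 4.12% of all, ETS letters in 30.4% against 19.1%, and YY1 letters in 8.93% against 3.38%. At least one of those 3 words was present in 44.6% against 24.9%. The GC box went the other way (46.4% against 67.5%), the TATA letters were alike (7.14% against 6.66%), and median GC content was 57.7% against 61.3%. These are descriptions of sequence, and a match shows no binding.

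Promoters of 6 genes that the later results turn on, picked after their values were seen, are shown 5′ to 3′ on the strand of the gene, with NRF1, ETS or YY1 letters in capitals. Mrpl45 (chr11:97315466-97315765, plus strand), Mrps18b (chr17:35916391-35916690, minus strand), Mrpl9 (chr3:94443086-94443385, plus strand) and Mrpl3 (chr9:105053018-105053317, plus strand) gained accessibility in at least 1 diet, and Mrps33 (chr6:39810887-39811186, minus strand) and Mrpl46 (chr7:78783040-78783339, minus strand) lost it.
Mrpl45: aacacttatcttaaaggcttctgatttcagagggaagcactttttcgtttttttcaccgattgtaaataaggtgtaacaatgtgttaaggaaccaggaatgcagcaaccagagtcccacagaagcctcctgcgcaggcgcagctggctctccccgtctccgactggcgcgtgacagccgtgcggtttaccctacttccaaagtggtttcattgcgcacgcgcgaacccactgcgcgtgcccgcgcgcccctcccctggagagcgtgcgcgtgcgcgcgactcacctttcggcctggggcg
Mrps18b: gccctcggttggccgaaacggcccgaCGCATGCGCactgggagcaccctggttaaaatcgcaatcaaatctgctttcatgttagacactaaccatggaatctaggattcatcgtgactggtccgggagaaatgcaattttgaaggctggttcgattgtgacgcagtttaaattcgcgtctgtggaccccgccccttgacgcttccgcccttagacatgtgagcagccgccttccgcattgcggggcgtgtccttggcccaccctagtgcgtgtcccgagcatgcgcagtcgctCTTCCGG
Mrpl9: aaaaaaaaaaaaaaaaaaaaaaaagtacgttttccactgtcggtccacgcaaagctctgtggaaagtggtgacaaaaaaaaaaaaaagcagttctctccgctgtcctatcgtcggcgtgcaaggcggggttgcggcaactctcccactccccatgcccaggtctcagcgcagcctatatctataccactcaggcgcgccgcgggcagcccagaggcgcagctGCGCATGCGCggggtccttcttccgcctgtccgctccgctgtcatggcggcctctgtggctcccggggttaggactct
Mrpl3: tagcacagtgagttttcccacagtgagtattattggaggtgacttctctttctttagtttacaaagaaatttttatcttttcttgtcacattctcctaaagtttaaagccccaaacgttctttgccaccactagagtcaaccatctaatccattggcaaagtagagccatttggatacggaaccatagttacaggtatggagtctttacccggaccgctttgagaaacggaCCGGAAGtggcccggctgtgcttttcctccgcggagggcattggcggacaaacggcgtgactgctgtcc
Mrps33: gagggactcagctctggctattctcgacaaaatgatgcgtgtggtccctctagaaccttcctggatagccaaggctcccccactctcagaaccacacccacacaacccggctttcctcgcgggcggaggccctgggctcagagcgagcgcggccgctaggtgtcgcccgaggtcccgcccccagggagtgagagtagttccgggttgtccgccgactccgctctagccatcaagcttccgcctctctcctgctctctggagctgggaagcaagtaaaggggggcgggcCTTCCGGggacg
Mrpl46: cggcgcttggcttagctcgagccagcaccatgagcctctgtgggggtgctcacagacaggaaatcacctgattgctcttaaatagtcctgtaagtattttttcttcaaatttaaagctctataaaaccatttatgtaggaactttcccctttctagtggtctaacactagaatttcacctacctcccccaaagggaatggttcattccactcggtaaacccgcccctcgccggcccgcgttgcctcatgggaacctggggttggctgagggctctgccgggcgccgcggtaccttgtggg
Mrpl9 carries NRF1 letters 28 bases before its start, where both strands match because the word is nearly a palindrome. Mrps18b has NRF1 letters at -224 and ETS letters at 43, Mrpl3 ETS letters at -19 and Mrps33 ETS letters at 38, counted from the start in the direction of the gene. The promoters of Mrpl45 and Mrpl46 hold none of the 3 words. Of promoters with sequence, NRF1 letters were in 2 of 14 genes that were higher in advanced FPC livers, 2 of 7 that were lower and 3 of 35 with no call. For advanced CDAHFD livers they were in 3 of 17 that were higher, 0 of 9 that were lower and 4 of 30 with no call.

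Many of these genes start back to back with a neighbour. A protein-coding gene on the other strand began within 1 kb of the start at 25.0% of the 56 genes against 12.3% of the 9033, at a median distance of 152 bp. Mrpl46 and Mrps11 form such a pair with each other, with starts 42 bp apart. The peak between them is assigned to Mrpl46 in the deposited annotation, so the row of Mrps11 holds 2 distal peaks alone. Other pairs are Mrps12 with Sars2 (147 bp), the mitochondrial seryl-tRNA synthetase gene, Mrpl32 with the proteasome gene Psma2 (205 bp), and Mrpl14 with Tmem63b (131 bp). A count at such a promoter cannot be divided between the partners. Of 124 peaks that the annotation places in a named transcript, 26 lay in a transcript of another gene.

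Taken as 1 sum, accessibility of the 70 genes lay in a narrow range over the libraries. Values are CPM, counts scaled to a fixed library size, here by TMM, a method that sets the bulk of genes equal between libraries. FPC controls had a sum of 3358 ± 69.8 CPM (SD, n = 4), mild FPC livers 3324 ± 29.0 (n = 4) and advanced ones 3328 ± 70.8 (n = 3). In the CDAHFD arm it was 3388 ± 39.8 (n = 4), 3416 ± 19.3 (n = 4) and 3411 ± 38.5 (n = 3). The lowest of the 22 libraries held 3264 CPM and the highest 3445. Within each arm the control, mild and advanced groups overlapped, while mild FPC livers (3289 to 3360) lay below mild (3392 to 3435) and advanced (3367 to 3436) CDAHFD livers.

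**Figure D1:**
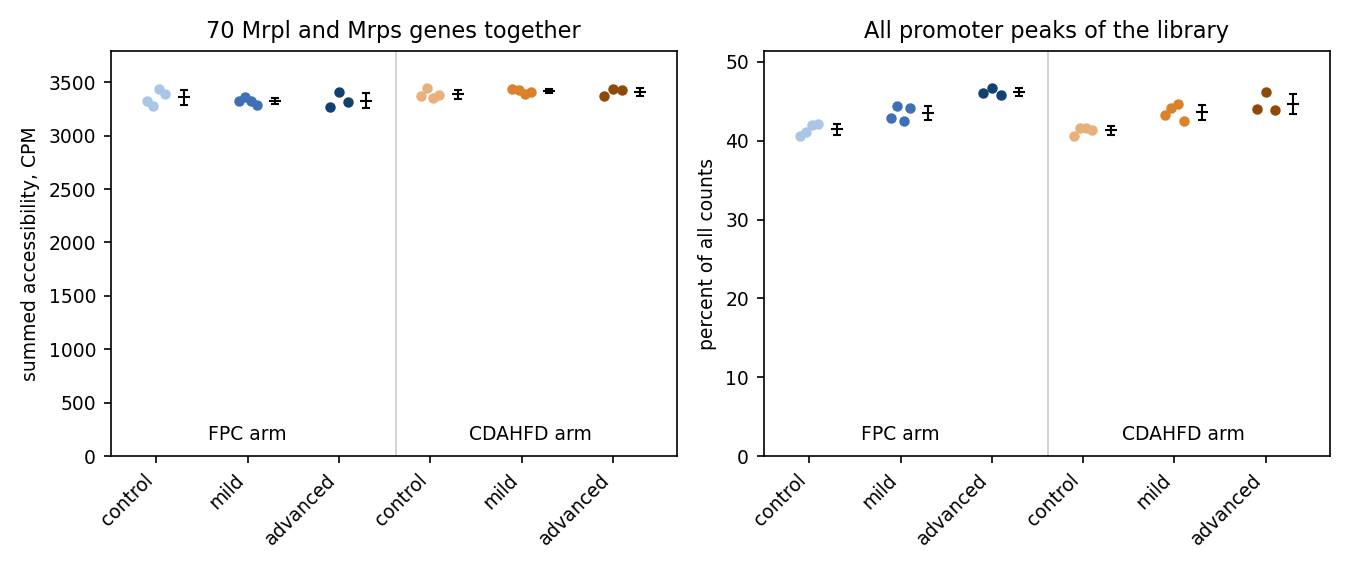
Summed accessibility of the 70 Mrpl and Mrps genes in CPM (left) and the percent of all counts that lies in promoter peaks of any gene (right), by group; each point is 1 library, and the black bar beside it is the mean ± SD. The sums lie between 3264 and 3445 CPM in all groups, while the promoter share climbs from 40.6 to 42.1% in FPC controls to 45.8 to 46.8% in advanced FPC livers.

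Library totals ran from 3785066 to 9328963 counts and were lowest on average in FPC controls (3785066 to 6039070.5, n = 4), so single-gene values there have the widest counting error. Correlations of peak counts between libraries of a group lay between 0.925 and 0.969, and no pair agreed within sampling noise. The share of counts in promoter peaks moved with disease: 41.4% ± 0.729 (SD) in FPC controls, 46.2% ± 0.484 in advanced FPC, 41.3% ± 0.525 in CDAHFD controls and 44.7% ± 1.30 in advanced CDAHFD livers. Hepatocyte markers summed to 2178 to 3142 CPM over the libraries, against 24.2 to 65.3 for 2 measured stellate cell markers, 39.0 to 52.3 for 4 macrophage, 90.2 to 227.2 for 4 lymphocyte, 165.8 to 276.6 for 8 endothelial and 322.9 to 625.2 for 10 cholangiocyte markers, none of whose measured genes was at 0 in every library. In advanced against control livers 10 (FPC) and 9 (CDAHFD) of 12 hepatocyte markers were lower, and 9 and 7 of 10 cholangiocyte markers were higher, with sums of 526.0 to 625.2 CPM in advanced FPC against 322.9 to 363.8 in its controls. Over all genes 30.7% (FPC) and 28.5% (CDAHFD) were higher, and 30.5% and 30% lower, in this comparison. Endothelial markers were lower at 3 and 4 of 8 genes and lymphocyte markers at 3 and 3 of 4, with 1 lymphocyte marker higher on the CDAHFD. Macrophage markers were higher at 2 and 1 and lower at 1 and 1 of 4, and the stellate marker Col1a1 was higher in both diets. Their part in the results below was not tested, and in such bulk preparations fewer nuclei of a type and less accessibility per nucleus cannot be told apart.

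Advanced livers were first compared with controls gene by gene, which asks which members of the flat sum moved. edgeR's quasi-likelihood test was fitted over all 15686 genes, and calls were made where the Benjamini-Hochberg adjusted p was below 0.05. On the FPC diet 16 of the 70 genes were higher and 11 lower, where 30.7% of all genes were higher and 30.5% lower. On the CDAHFD 21 were higher and 13 lower, against 28.5% and 30% of all genes. The share called was therefore 38.6% and 48.6%, below the 61.2% and 58.5% of all genes. The 70 genes also had less to sum, with a median of 1 peak against 2 and 204.9 counts against 242.9. In a separate fit of single peaks the shares lay closer. Of their promoter peaks 46.7% (FPC) and 42.2% (CDAHFD) were called, against 51% and 45.1% of all promoter peaks. Of their distal peaks 52.4% and 60.3% were called, against 56.2% and 58.3%. Median log2 changes were 0.052 and 0.035 for the 70 genes, and 0.0079 and -0.014 over all genes.

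Changes of the gene sums were also smaller than over all genes. The median size of the log2 change, whatever its sign, was 0.22 (FPC) and 0.23 (CDAHFD) against 0.31 and 0.28 over all genes. No member passed 2-fold on FPC and 2 did on the CDAHFD, where 10.4% and 10.3% of all genes did. Large-subunit names (10 higher and 8 lower of 45 on FPC, 13 and 7 on CDAHFD) and small-subunit names (6 and 3 of 25, then 8 and 6) both split in this way. The balance of directions depends on how libraries are scaled. With TMM computed on promoter peaks alone the higher share of called members fell from 59.3% to 37.9% (FPC) and from 61.8% to 48.5% (CDAHFD). Over all called genes it fell from 50.2% to 38.4% (FPC) and from 48.7% to 42% (CDAHFD). With library totals it was 72.2% of called members on FPC, beside 58.7% of all called genes. The first of these scalings sets the bulk of promoter peaks equal, which removes any gain common to promoters. On the deposited normalized signal, tested with limma, 31 members were higher on FPC. The share of all genes higher in that setting is not given here, so this count does not set the members apart.

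Of the genes called, 16 were called in both diets, which is 59.3% of the 27 on FPC and 47.1% of the 34 on the CDAHFD, and none had opposite signs. Over all genes 74.2% of those called on FPC and 77.6% of those called on the CDAHFD were called in both with the same sign. Opposite signs were rare there too, at 85 genes beside 7117 with the same sign. Higher in both were Mrpl9, Mrpl20, Mrpl38, Mrpl40, Mrpl45, Mrpl54, Mrpl55, Mrps12 and Mrps18b. Lower in both were Mrpl14, Mrpl27, Mrpl37, Mrpl46, Mrps6, Mrps9 and Mrps33. All 9 that were higher have a promoter peak, while 3 of the 7 that were lower have none. A further 25 genes were called in neither diet, with log2 changes between -0.40 and 0.33. The 2 arms have separate controls, and their advanced changes correlated across the 70 genes with r = 0.72, against 0.91 across all genes, which are not independent replicates.

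**Figure D2:**
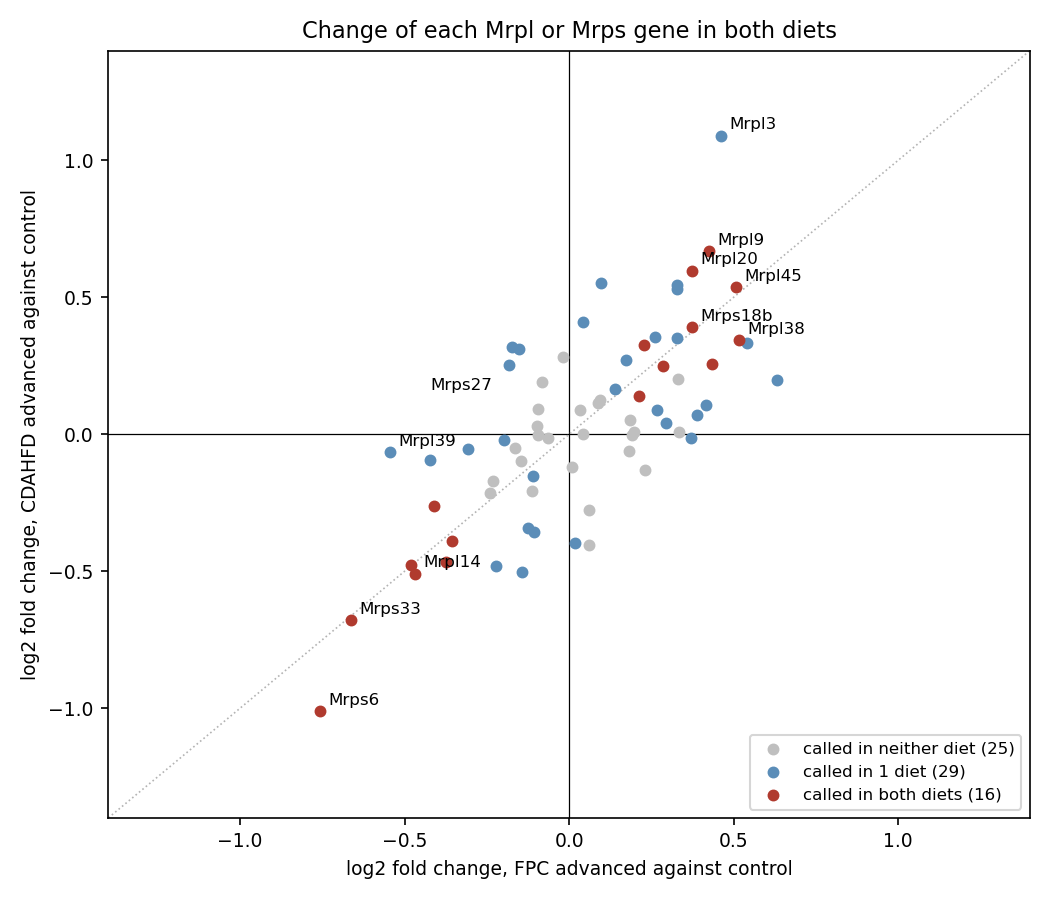
Log2 fold change of each of the 70 genes in advanced against control livers, FPC on the horizontal and CDAHFD on the vertical axis, coloured by whether the gene was called in neither (25), 1 (29) or both (16) diets; the dotted line marks equal change. The 16 genes called in both lie in the lower left and upper right of the plot, and Mrpl39 and Mrps27 are those whose change differed between diets.

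Mrpl45, a large-subunit protein near the peptide exit that helps dock the ribosome to the inner membrane, gave the smallest p among genes that were higher. Its summed accessibility was 89.3, 81.5, 93.5 and 87.8 CPM in the FPC controls, 116, 107, 108 and 108 in mild and 123, 128 and 125 in advanced FPC livers. In the CDAHFD arm it was 87.0, 91.8, 95.4 and 88.2 in controls, 122, 128, 124 and 129 in mild and 123, 146 and 126 in advanced livers. Every mild and advanced library lay above every control of its arm, and on FPC the mild libraries also lay below all advanced ones. The log2 change from control to advanced was 0.51 ± 0.062 (SE, adjusted p = 2.21e-07) on FPC and 0.54 ± 0.059 (SE, adjusted p = 3.74e-08) on the CDAHFD, which is 1.42-fold and 1.45-fold. Of its 6 peaks, both promoter peaks and 3 upstream peaks were higher in both diets, the largest change being at chr11:97302247-97302447, 13369 bp upstream in an intergenic region, with 1.27 and 1.11. The sixth, at the end of Gpr179, was not called.

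Mrps18b, a small-subunit paralogue of bacterial S18, was higher by 0.37 ± 0.054 (SE, adjusted p = 2.54e-06) on FPC and 0.39 ± 0.051 (SE, adjusted p = 6.71e-07) on the CDAHFD. FPC control livers held 97.1, 91.3, 103 and 98.0 CPM against 128, 130.4 and 121 in advanced ones, and CDAHFD controls 98.0, 99.3, 104 and 102 against 129, 134 and 133. Neither pair of groups overlapped. Higher in both diets were the 2 peaks at and just before the start, at chr17:35916334-35916534 (0.53 and 0.47) and chr17:35916660-35916860 (0.52 and 0.53). Both are annotated to the promoter of Ppp1r10, a regulatory subunit of protein phosphatase, so the change may belong to either gene. The peak 710 bp inside Mrps18b was not called.

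Mrpl38, of the large subunit, was higher by 0.52 ± 0.074 (SE, adjusted p = 2.36e-06) on FPC and 0.34 ± 0.071 (SE, adjusted p = 0.000213) on the CDAHFD. Its values were 66.3, 65.6, 60.8 and 67.2 CPM in FPC controls and 87.3, 101 and 89.1 in advanced FPC livers, with no overlap. CDAHFD controls had 61.5, 69.6, 66.3 and 63.4 CPM and advanced livers 77.3, 84.8 and 86.8, again apart. All 3 of its promoter peaks were higher in both diets. Its 1 distal peak, in exon 29 of the neighbouring gene Fbf1 at chr11:116145395-116145595, showed a much larger change of 2.88 and 2.22 from a low level. That peak read 0.969, 1.06, 1.01 and 1.01 CPM in FPC controls and 7.42, 10.3 and 4.93 in advanced FPC livers.

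Mrpl9 and Mrpl20, homologues of bacterial L9 and L20, each have a single peak. Mrpl9 stood at 12.4, 13.3, 13.4 and 11.9 CPM in FPC controls and 15.4, 18.7 and 17.4 in advanced livers, and at 13.6, 10.9, 12.5 and 12.8 and 18.4, 19.7 and 21.5 in the CDAHFD arm, so that no advanced library reached down to its controls. Its change was 0.43 ± 0.13 (SE, adjusted p = 0.00515) on FPC and 0.67 ± 0.11 (SE, adjusted p = 2.07e-05) on the CDAHFD, at the promoter with NRF1 letters shown above. Mrpl20 was measured 694 bp inside the gene, in the 5′ UTR of its second exon, at chr4:155803472-155803672. It held 16.7, 19.0, 20.9 and 23.3 CPM in FPC controls against 26.9, 26.1 and 24.8 in advanced livers (0.37, adjusted p = 0.00274), and 15.6, 19.4, 19.4 and 17.6 against 26.2, 28.0 and 28.0 in the CDAHFD arm (0.60, adjusted p = 7.73e-06). Advanced and control libraries of Mrpl20 did not overlap in either arm.

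Smaller gains in both diets were seen at Mrps12, the homologue of S12 at the decoding centre (0.21, adjusted p = 0.00257 and 0.14, adjusted p = 0.03). Mrps12 has a promoter peak shared with Sars2 that was higher by 0.50 and 0.67, and a peak 7874 bp away in an intron of Fbxo17 that was lower on the CDAHFD (-0.49). Its gene-level call was lost with TMM on promoter peaks alone (adjusted p = 0.077 on FPC and 0.153 on the CDAHFD), and on the CDAHFD also with DESeq2 (0.0568) and without advanced library 1 (0.156), advanced library 2 (0.0656) or control library 2 (0.0976). Mrpl55 changed by 0.43 (adjusted p = 0.000364) and 0.26 (adjusted p = 0.0139). Mrpl40 and Mrpl54, named here for being called in both diets, changed by 0.28 (adjusted p = 0.00624) and 0.23 (adjusted p = 0.0379) on FPC, and by 0.25 (adjusted p = 0.0105) and 0.33 (adjusted p = 0.0025) on the CDAHFD. For Mrpl40 a peak 16304 bp from the start was higher (0.98 and 0.94), and its promoter peak was not called.

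**Figure D3:**
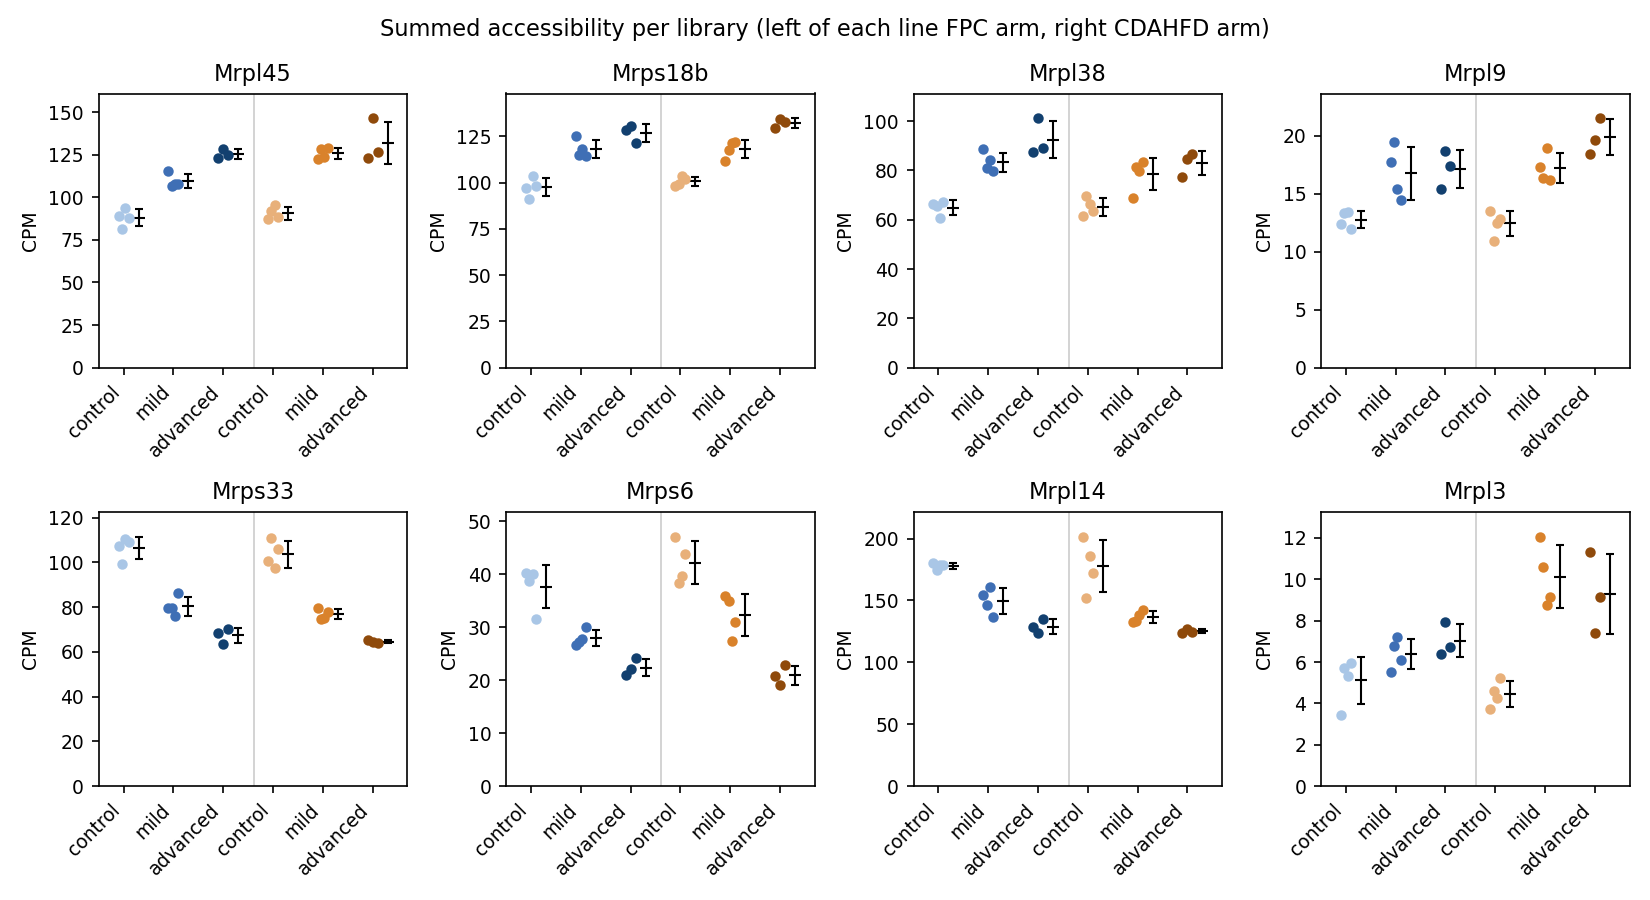
Summed accessibility in CPM of 8 genes by group; each point is 1 library, the black bar the mean ± SD, and the grey line parts the FPC arm (left) from the CDAHFD arm (right). Mrpl45, Mrps18b, Mrpl38 and Mrpl9 lie higher, and Mrps33, Mrps6 and Mrpl14 lower, in advanced than in control livers of both arms, while Mrpl3 reaches 7.42 to 11.3 CPM in advanced CDAHFD livers and 6.40 to 7.93 in advanced FPC livers.

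Mrps33, a small-subunit protein with no bacterial counterpart, had the smallest p among genes that were lower. It read 107, 99.2, 110.2 and 109 CPM in FPC controls, 79.8, 79.6, 75.9 and 86.3 in mild and 68.3, 63.6 and 70.3 in advanced livers. In the CDAHFD arm the values were 100.4, 111, 97.3 and 106, then 79.5, 74.6, 75.2 and 78.0, then 65.2, 64.6 and 64.0. The 3 groups of each arm did not overlap, with mild between control and advanced. The change from control to advanced was -0.66 ± 0.061 (SE, adjusted p = 3.3e-09) on FPC and -0.68 ± 0.059 (SE, adjusted p = 1.01e-09) on the CDAHFD, that is 1.58-fold and 1.60-fold lower. An intron 1 peak at chr6:39807300-39807500, 3536 bp from the start, fell most (-1.12 and -1.51), from 29.4, 28.4, 29.1 and 34.0 CPM in CDAHFD controls to 8.76, 11.3 and 11.9 in advanced livers. The promoter peak was also lower, with -0.34 and -0.33.

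Mrps6, the homologue of bacterial S6, had the largest fall on the CDAHFD. CDAHFD controls held 47.1, 38.3, 39.6 and 43.9 CPM and advanced livers 20.8, 19.1 and 22.8, a change of -1.01 ± 0.10 (SE, adjusted p = 1.33e-08). In the FPC arm 40.3, 38.7, 40.0 and 31.7 CPM went to 20.9, 22.1 and 24.1, a change of -0.76 ± 0.11 (SE, adjusted p = 2.79e-06). No library of one group reached the other in either arm. None of its 3 peaks is at its own start: 2 lie in exon 2 of Slc5a3, the myo-inositol transporter gene nested in Mrps6, at 18642 and 18859 bp, and the third in an intron of Mrps6 at 47445 bp. All 3 were lower in both diets, the last with -0.69 and -1.43.

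Mrpl14, the homologue of L14, was lower as a sum, while its promoter peak was not called in either diet. Sums were 181, 174, 178 and 178 CPM in FPC controls and 128, 123 and 135 in advanced livers, then 201, 152, 186 and 172 and 124, 127 and 125 in the CDAHFD arm, with no overlap. The change was -0.47 ± 0.072 (SE, adjusted p = 5.72e-06) on FPC and -0.51 ± 0.070 (SE, adjusted p = 1.13e-06) on the CDAHFD. All 6 peaks between 12872 and 22018 bp past the start were lower in both diets, down to -1.52 and -1.67. A peak in intron 1 at chr17:45691649-45691849, 5400 bp from the start, went the other way, from 3.81, 1.94, 1.90 and 1.53 CPM in CDAHFD controls to 15.0, 14.7 and 11.1 in advanced livers (2.55, and 2.38 on FPC). With peaks within 10 kb alone the sum turned to 0.19 on FPC (adjusted p = 0.0293) and 0.13 on the CDAHFD (0.0998), so its direction depends on the distance at which peaks are counted.

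The other genes that were lower in both diets rest on few peaks. Mrpl27 and Mrpl37, of the large subunit, are each represented by 1 peak inside another gene: Mrpl27 by intron 10 of Xylt2 (-0.38, adjusted p = 0.00182 and -0.47, adjusted p = 7.78e-05), and Mrpl37 by intron 5 of Ssbp3, 46049 bp away (-0.48, adjusted p = 0.00349 and -0.48, adjusted p = 0.00147). Mrps9, the homologue of S9, changed by -0.41 and -0.26 (adjusted p = 1.91e-05 and 0.00154), and the peak at its start was lower in both. Mrpl46 read 23.6, 24.7, 22.1 and 21.5 CPM in FPC controls and 18.8, 17.4 and 17.6 in advanced livers (-0.35, adjusted p = 0.0127), with -0.39 (adjusted p = 0.00321) on the CDAHFD. In the fit over peaks, which scales libraries over other features, the same promoter peak missed the threshold on FPC (-0.26, adjusted p = 0.0776).

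Among genes called in 1 diet, a difference between diets has to be tested on its own. Over all genes 1.99% were higher and 2.81% lower in the FPC than in the CDAHFD advanced change, and of the 70 genes 0 were higher and 2 lower. The first of them is Mrpl39, a large-subunit protein, with 109, 110.0, 125 and 111 CPM in FPC controls and 77.8, 77.0 and 80.4 in advanced FPC livers (-0.54, adjusted p = 6.97e-06), against 109.9, 102, 96.7 and 106 and 85.3, 102 and 111 in the CDAHFD arm (-0.065, adjusted p = 0.502). The FPC groups are apart and the CDAHFD groups overlap. The difference was -0.48 ± 0.12 (SE, adjusted p = 0.0192), and it lost its call without advanced CDAHFD library 3 (-0.39, adjusted p = 0.0676). With promoter peaks alone the difference was not called (-0.33, adjusted p = 0.108), nor was the FPC change (-0.21, 0.054). Of its 5 peaks the 1 called on FPC was intergenic, 10804 bp upstream, at chr16:84746006-84746206 (-0.96 on FPC, -0.25, adjusted p = 0.0703 on the CDAHFD). A promoter peak, of 2 at this gene, was higher on the CDAHFD (0.37).

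Mrps27, a small-subunit protein with pentatricopeptide repeats, is the second, and its controls already differed. Its single peak, in intron 2 at chr13:99353254-99353454, held 69.4, 57.7, 77.9 and 66.0 CPM in FPC controls and 52.7, 45.2, 47.4 and 55.0 in CDAHFD controls, a difference of 0.45 ± 0.077 (SE, adjusted p = 0.000953). Advanced FPC and CDAHFD livers held 60.4, 60.7 and 59.6, and 59.3, 61.6 and 57.7, CPM, and overlapped. The advanced change was -0.18 (adjusted p = 0.0554) on FPC and 0.25 (adjusted p = 0.00851) on the CDAHFD, and the difference -0.43 ± 0.11 (SE, adjusted p = 0.0271). That call was lost without FPC control library 3 (-0.35, adjusted p = 0.0736), advanced FPC library 3 (0.0586), CDAHFD control library 3 (0.0553), or advanced CDAHFD library 1 (0.0542) or 2 (0.0537), and on the deposited signal (0.0612). For the mild change, where 2.5% of all genes were higher and 2.78% lower, 0 of the 70 were higher and 1 lower, again Mrps27 (-0.41 ± 0.11, SE, adjusted p = 0.0231), which was lost without FPC control library 3 (0.0794) or mild CDAHFD library 1 (0.051).

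Mrpl3, the homologue of L3 at the peptidyl transferase centre, had the largest rise of any member and was called on the CDAHFD alone. CDAHFD controls held 3.73, 4.59, 4.26 and 5.21 CPM, mild livers 12.1, 10.6, 8.74 and 9.14 and advanced livers 11.3, 7.42 and 9.12, so both diseased groups lay above all controls. The change was 1.20 ± 0.17 (SE, adjusted p = 5.14e-06) in mild and 1.09 ± 0.18 (SE, adjusted p = 1.89e-05) in advanced livers. On FPC, 3.46, 5.71, 5.33 and 5.97 CPM went to 6.40, 7.93 and 6.74 in advanced livers, a log2 change of 0.46 ± 0.21 (SE, adjusted p = 0.0568) with a 95% interval, not adjusted for the number of genes, of 0.056 to 0.87. Its only peak spans the start with the ETS letters shown above, and in the fit over peaks it was called on FPC as well (0.56, adjusted p = 0.0272). The FPC change was also called with library totals alone (0.53, adjusted p = 0.0322), limma on the deposited signal (0.56, 0.0175) or rounded sums (0.48, 0.047). At about 40.4 counts per library this is one of the thinnest members, and the difference between the diets was not called.

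Other calls in 1 diet were Mrps16, whose loss in humans impairs respiratory chain assembly, with 0.39 (adjusted p = 8.74e-05) on FPC and 0.069 (adjusted p = 0.401) on the CDAHFD, and Mrps17 with 0.42 (adjusted p = 0.000446) and 0.11 (adjusted p = 0.296). Mrpl15 was lower on FPC (-0.42, adjusted p = 0.00021, and -0.094, adjusted p = 0.333 on the CDAHFD), where its 3 distal peaks were each lower, and with promoter peaks alone the FPC value was 0.039 (adjusted p = 0.787). Mrpl4 and Mrpl42 were lower on the CDAHFD (-0.36, adjusted p = 0.00113 and -0.48, adjusted p = 0.00121), with -0.11 (adjusted p = 0.322) and -0.22 (adjusted p = 0.128) on FPC. Mrps7 was higher on the CDAHFD (0.53, adjusted p = 0.0216), which was lost with cyclic loess scaling (0.0905) and without advanced library 2 (0.0995) or control library 4 (0.0665). Mrps22, mutated in a human mitochondrial disease, was higher on the CDAHFD (0.27, adjusted p = 0.0244), as was its peak in an intron of Copb2, 17630 bp from its start (1.51). With promoter peaks alone Mrps22 turned to -0.30 (adjusted p = 0.0276), with peaks within 10 kb to -0.25 (0.0651), and its call was also lost with TMM on promoter peaks alone (0.0621) and without advanced library 1 (0.22) or control library 1 (0.0897).

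Several members of known role were called in neither diet, though calls appeared for each of them under other settings. Mrpl10 and Mrpl12, the stalk that recruits translation factors, read 0.33 (adjusted p = 0.0655) and 0.094 (adjusted p = 0.375) on FPC and 0.20 (adjusted p = 0.234) and 0.12 (adjusted p = 0.214) on the CDAHFD. Mrpl44, a relative of RNase III in the large subunit, showed -0.081 (adjusted p = 0.461) and 0.19 (adjusted p = 0.0587). Mrps34, needed for small-subunit stability, showed 0.33 (adjusted p = 0.0795) and 0.0097 (adjusted p = 0.991). On the CDAHFD Mrpl44 was called with library totals alone (adjusted p = 0.0289), the deposited signal (0.00981), relative log expression factors (0.0451), the diet arm alone (0.0338), a mean of at least 100 counts (0.0323) or rounded sums (0.0354), and without advanced library 1 (0.031) or control library 3 (0.0409). On FPC Mrpl10 and Mrps34 were called with library totals alone (0.0312 and 0.0364), the deposited signal (0.0121 and 0.012) and without control library 4 (0.0371 and 0.028), and Mrpl10 also without advanced library 1 (0.0448). Mrpl12 was called with limma on the deposited signal in both diets (0.21, adjusted p = 0.0432 on FPC and 0.23, 0.0344 on the CDAHFD). The members with the highest mean accessibility over all 22 libraries, Mrpl48 (157.5 CPM) and Mrpl17 (151.9 CPM), were not called either. With limma on the deposited signal or with cyclic loess, Mrpl48 was called higher on FPC (adjusted p = 0.0484 and 0.0269). The same settings called it higher on the CDAHFD (0.0137 and 0.0323), and Mrpl17 as well (0.0134 and 0.0304). On FPC Mrpl17 was called lower with TMM on promoter peaks alone (-0.19, adjusted p = 0.00408) or promoter peaks alone (-0.21, 0.00118). Mrpl2, with the lowest mean over the 22 (6.62 CPM), showed -0.23 (adjusted p = 0.335) and -0.17 (adjusted p = 0.457). Peak sums are not set per length of open DNA, so these levels order the rows and not the genes' activity.

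The fit over single peaks set promoter and distal peaks of these genes apart by position. On FPC, 36 of the 90 promoter peaks were higher and 6 lower, where 38.9% and 12.1% of all promoter peaks were. On the CDAHFD 30 were higher and 8 lower, against 31.5% and 13.7%. Of the 63 distal peaks 15 were higher and 18 lower on FPC (23.9% and 32.3% of all distal peaks), and 19 and 19 on the CDAHFD (25.7% and 32.7%). Median log2 changes of promoter peaks were 0.18 (FPC) and 0.088 (CDAHFD), beside 0.19 and 0.11 for promoter peaks of all genes. The excess of gains at promoters depends on scaling, since with TMM computed on promoter peaks alone 14 were higher and 18 lower on FPC, and 18 and 18 on the CDAHFD. That scaling sets the bulk of promoter peaks equal between libraries, so it removes any gain common to them. The share of all promoter peaks called under it is not given here, so these counts do not set the members apart.

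The median size of the log2 change was 0.51 (FPC) and 0.46 (CDAHFD) at distal peaks and 0.26 and 0.23 at promoter peaks, close to 0.52 and 0.51, and 0.32 and 0.26, over all genes. Distal peaks are also the thinner ones, with a median of 9.29 CPM against 19.1 at promoter peaks. The largest change of all 153 was an intergenic peak at chr13:118339690-118339890, 47462 bp from the start of Mrps30, a large-subunit protein. It read 0.485, 0.530, 0 and 1.01 CPM in FPC controls and 5.73, 8.55 and 5.09 in advanced livers (3.79 ± 0.46, SE, adjusted p = 1.54e-07), and 0.424, 0, 0.713 and 0.340 against 6.20, 5.67 and 5.97 in the CDAHFD arm (3.87 ± 0.42, SE, adjusted p = 1.41e-08). Controls were near 0 and every advanced library above them. In the deposited annotation Mrps30 is merely the nearest start, and the peak just before that start was called on the CDAHFD (0.34) and not on FPC (-0.061, adjusted p = 0.697).

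Other distal gains lay in introns. A peak of Mrps28 in its own intron 2, 33316 bp from the start, was higher by 0.64 on FPC and 1.70 on the CDAHFD, while the peak at its start was lower on FPC (-0.25). A peak of Mrps23 in an intron of Cuedc1 was higher by 1.16 and 0.85. In Mrpl1, a peak 11823 bp into the gene was higher by 1.08 and 1.32 and its promoter peak was not called. In all, 48 of the 70 genes (68.6%) had a called peak on FPC and 47 (67.1%) on the CDAHFD, where 79.2% and 76.9% of all genes had one. Peaks called in both directions were found at 4 (5.71%) and 5 (7.14%) of the 70, against 17.2% and 19.1% of all genes.

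**Figure D4:**
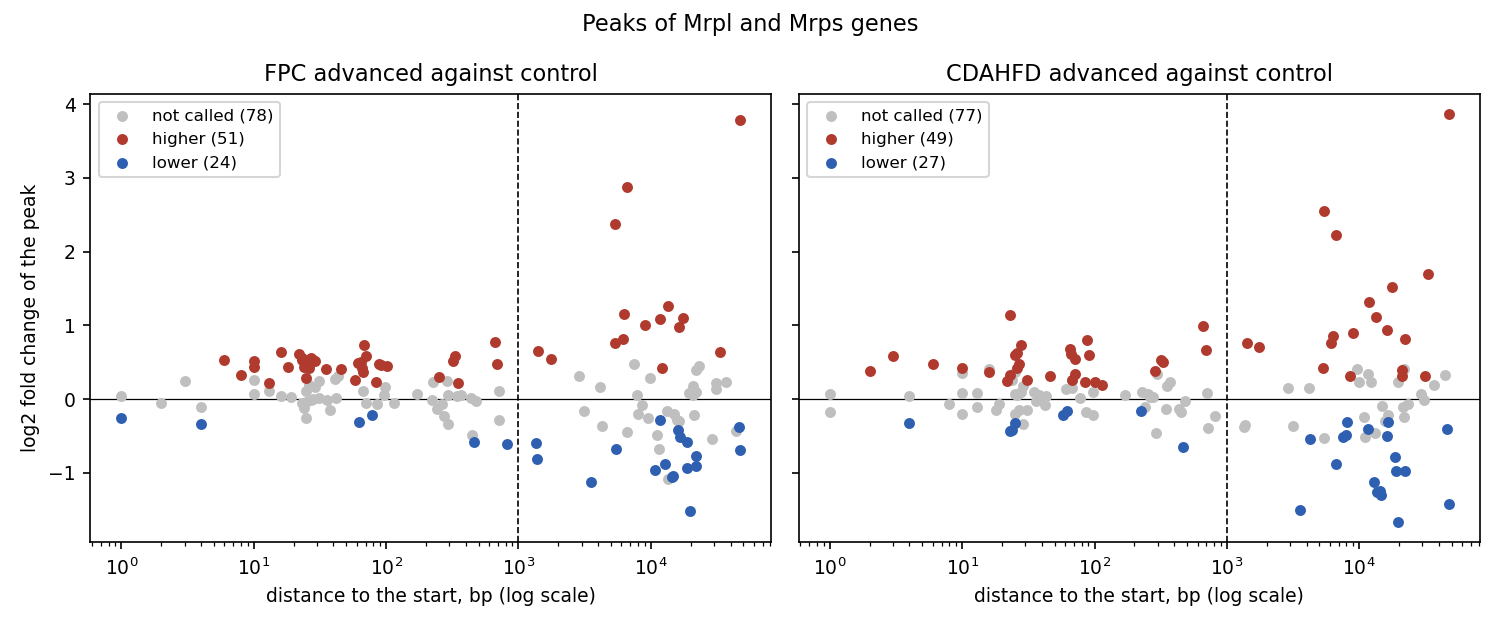
Log2 fold change of each of the 153 peaks in advanced against control livers (FPC left, CDAHFD right) by its distance from the transcription start in bp, on a log axis with a distance of 0 drawn at 1; red marks peaks called higher, blue lower and grey not called, and the dashed line is the 1 kb limit of promoter peaks. Changes past 1 in size lie almost wholly to the right of the line, and the topmost point in both panels is the Mrps30 peak.

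In mild livers 11 genes were higher and 9 lower than in FPC controls, where 19.7% and 20.6% of all genes were, and 14 and 8 against CDAHFD controls, where 22.1% and 23.3% were. In both diets Mrpl9, Mrpl38, Mrpl45, Mrps7 and Mrps18b were higher and Mrpl14, Mrpl42, Mrps6, Mrps28 and Mrps33 lower, 10 genes in all with none opposite. These 10 are 50% of the genes called on FPC and 45.5% of those called on the CDAHFD, where over all genes the shares were 63.3% and 56.3%. Opposite signs were rare over all genes too, at 82 genes beside 4007 with the same sign. Mrpl45 changed by 0.31 (adjusted p = 0.000299) on FPC and 0.47 (adjusted p = 2.84e-07) on the CDAHFD, and Mrps33 by -0.41 (adjusted p = 8.43e-06) and -0.43 (adjusted p = 7.99e-07). Mrpl46 was lower in mild CDAHFD livers (-0.42, adjusted p = 0.00119), and Mrps27 was higher there (0.35, adjusted p = 0.000411). Mrpl15 was lower in mild FPC livers (-0.39, adjusted p = 0.000719), where library 1 (89.4, 63.8, 66.3 and 66.7 CPM, in library order) stood apart from the other 3, and with promoter peaks alone the value was -0.052 (adjusted p = 0.745).

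Between mild and advanced livers few of the genes were called. On FPC 6 were higher and 6 lower (15.4% and 16.1% of all genes), and on the CDAHFD 1 higher and 4 lower (9.33% and 8.05%). Mrps6 fell further in both arms (-0.32, adjusted p = 0.0281 on FPC and -0.63, adjusted p = 0.000212 on the CDAHFD), as did Mrps33 (-0.26, adjusted p = 0.00239 and -0.25, adjusted p = 0.00489), though with promoter peaks alone Mrps33 read -0.098 (adjusted p = 0.452) and -0.11 (0.453). Mrpl37, with 16.6, 19.9, 15.6 and 18.2 CPM in mild and 12.4, 10.6 and 10.3 in advanced FPC livers, changed by -0.67 (adjusted p = 0.000273) with no overlap, and Mrpl4 by -0.43 (adjusted p = 0.000574) on FPC and -0.30 (adjusted p = 0.0184) on the CDAHFD. Mrps2, the homologue of S2, was higher on FPC (0.51, adjusted p = 0.00183). Calls at Mrpl45 (0.20, adjusted p = 0.0125) and Mrps16 (0.22, adjusted p = 0.0175) on FPC were lost without advanced library 2 (0.0634 and 0.129) and, for Mrps16, without mild library 1 (0.0578). Both were also lost with TMM on promoter peaks alone (0.0716 and 0.0841) and with promoter peaks alone (0.918 and 0.113), where Mrpl45 read 0.016, and that of Mrpl45 with peaks within 10 kb (0.19). On the CDAHFD those of Mrps18b (0.16, adjusted p = 0.0295) and Mrpl4 were lost without mild library 1 (0.107 and 0.0613) or advanced library 2 (0.103 and 0.0927), among others.

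Controls of the 2 arms, on the same low fat diet for 20 or 7 weeks, differed at 4 of the genes, 2 higher and 2 lower at 20 weeks, where 3.67% and 2.35% of all genes were. Beside Mrps27, Mrpl32, the large-subunit protein that the m-AAA protease matures, was higher (0.25, adjusted p = 0.0251), and Mrps16 (-0.25, adjusted p = 0.0372) and Mrpl1 (-0.30, adjusted p = 0.0419) were lower. The call at Mrps27 held with any of the 8 control libraries left out. Those at Mrpl32, Mrps16 and Mrpl1 were lost in 4, 6 and 5 of those 8 fits, with adjusted p up to 0.0758, 0.112 and 0.129.

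Other parts of mitochondrial translation were read from lists of genes outside the name rule. Values here compare advanced with control livers. In the same fit 30.7% of all genes were higher and 30.5% lower on FPC, and 28.5% and 30% on the CDAHFD. The 4 measured ribosomal proteins with other names, Aurkaip1, Chchd1, Dap3 and Ptcd3, were called in neither diet (0 of 4 by edgeR, with log2 changes between -0.027 and 0.33). In mild against control CDAHFD livers 1 of these 4 was lower, where 23.3% of all genes were. Of 18 factors for assembly and rRNA modification 4 were higher and 2 lower on FPC and 3 and 4 on the CDAHFD, among them the GTPase Mtg1 (0.44, adjusted p = 0.000501, and 0.25, 0.0218). Of 13 translation factors 2 were higher and 4 lower, then 1 and 3, and the elongation factor Gfm1 was lower in both (-0.66, adjusted p = 1.43e-06, and -0.65, 6.41e-07). The elongation factor Tufm was higher on FPC (0.41, adjusted p = 1.88e-05) and read 0.095 (0.21) on the CDAHFD. Of 14 aminoacyl-tRNA synthetases 3 were higher and 5 lower, then 1 and 3, with Cars2 (-0.33 and -0.61) and Mars2 (-0.48 and -0.28) lower in both.

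Regulators split as well in advanced against control livers. There 30.7% of all genes were higher and 30.5% lower on FPC, and 28.5% and 30% on the CDAHFD. Of 12 genes for upkeep and transcription of mitochondrial DNA 2 were higher and 3 lower in each diet, with Tfam, which packages that DNA and starts its transcription, lower (-0.33, adjusted p = 0.000928, and -0.39, 9.63e-05) and the nuclease gene Mgme1 higher (0.37 and 0.46). Of 12 regulators of nuclear genes for mitochondria 4 were higher and 3 lower on FPC and 3 and 4 on the CDAHFD. Ppargc1a, the coactivator that drives mitochondrial biogenesis, was lower, at -0.93 (adjusted p = 1.38e-08) and -0.74 (2.28e-07), from 229.0 to 120.1 CPM on FPC and from 224.5 to 133.9 on the CDAHFD. Its relative Pprc1 was higher (0.57, adjusted p = 6.74e-05, and 0.25, 0.0291). The medians of these 6 lists lay between -0.20 and 0.16 on FPC and between -0.17 and 0.092 on the CDAHFD.

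Other housekeeping gene classes were counted in the same fits of advanced against control livers. There 30.7% of all genes were higher and 30.5% lower on FPC, and 28.5% and 30% on the CDAHFD. Of 80 cytosolic ribosomal protein genes 34 were higher and 12 lower on FPC and 31 and 9 on the CDAHFD, with medians of 0.17 and 0.15. Of 87 genes with names of the respiratory chain and ATP synthase, Ndufaf assembly factors among them, 21 were higher and 27 lower, then 16 and 26. Their medians were -0.010 and -0.021. Of 46 genes with proteasome names (Psma to Psmg, with Psmc3ip matched by name alone) 18 were higher and 7 lower, then 11 and 9. These counts describe the classes, and differences between classes were not tested.

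**Figure D5:**
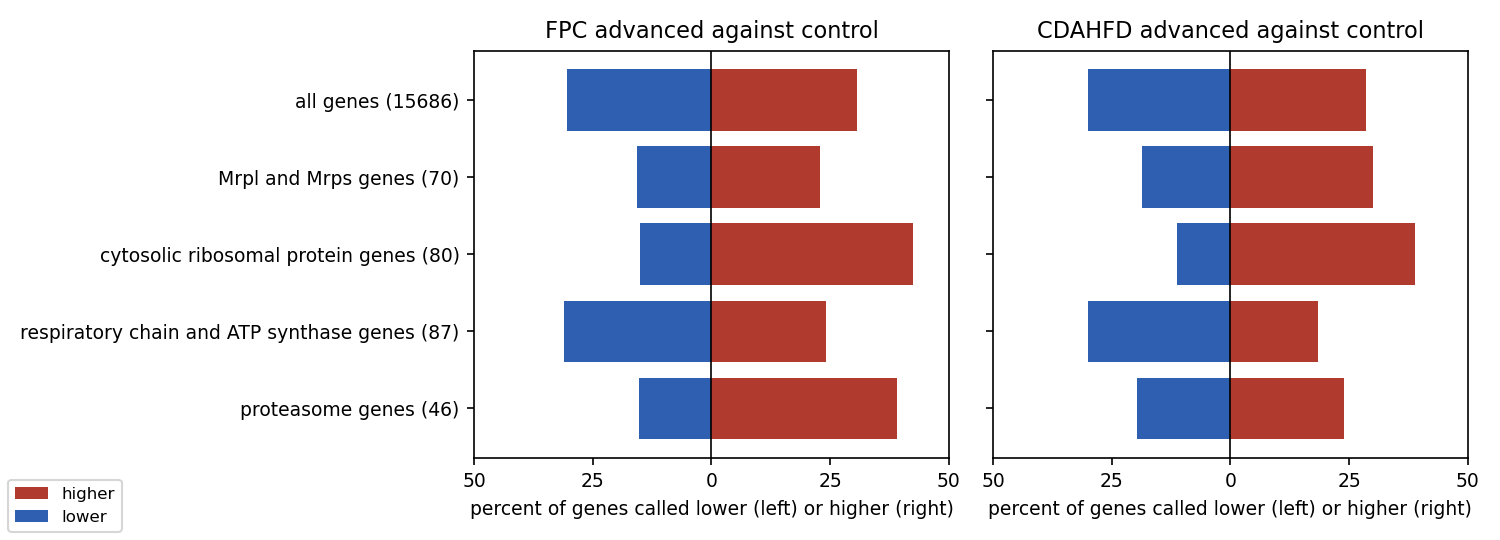
Percent of genes called lower (bars to the left of 0) and higher (to the right) in advanced against control livers, FPC in the left and CDAHFD in the right panel, for all 15686 genes, the 70 Mrpl and Mrps genes and 3 classes of like housekeeping genes, with the number of genes in brackets. On FPC 22.9% of Mrpl and Mrps genes were higher and 15.7% lower, against 42.5% and 15% of cytosolic ribosomal protein genes.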

How the data were processed

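ATAC-seq libraries of 22 mice in 6 groups were read from a deposited table of peaks by libraries. Per the submitters' processing notes, reads were processed with BWA 0.7.5a-r405, SAMtools, HOMER and DESeq2 on the mouse build mm10; the sources used here do not give their order and settings. The authors deposited cut counts per 200 bp peak, handled here like expected counts because 47.8% of values carry a fraction, and they were rounded to whole numbers. The authors also deposited a normalized signal, which equals the counts divided by 1 factor per library and served as an alternative. Gene names, distances and annotations are the authors' own; RefSeq GRCm38.p6 gave promoter sequences and neighbours. Library totals of 3785066 to 9328963 counts set the precision.

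Counts of peaks within 50 kb of a start were summed per gene. edgeR 4.0.16 (R 4.3.3) fitted a quasi-likelihood model with TMM scaling and 1 mean per group over all 22 libraries, for genes and again for single peaks, so a gene with 1 peak has slightly different values in each. All features passed edgeR's filter on low counts. Log2 fold changes are those of the edgeR fit, and the log2 CPM behind the correlations between libraries used a prior count of 2. Standard errors come from the F statistic, and Benjamini-Hochberg adjustment ran over all genes or peaks. The method was tested on simulated data in which few genes or peaks changed, each by more than most changes seen here. Small or widespread changes were not covered by that test. The sources used here name no batch. Alternatives were other scalings, DESeq2 1.42.0, limma 3.58.1, other windows and filters, and each library left out. Replicates are different mice.

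Members and gene lists were chosen with earlier results of these data known. The text names up to 6 higher and 6 lower members with the smallest p per advanced comparison, 3 and 3 per other comparison, the 2 highest and 2 lowest by CPM, 8 of known role, those with a diet difference, and up to 3 genes per other list; further members were named after their values were seen.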

Additional observations from a re-analysis of the deposited data

Results flagged for a closer look

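Of 136 checks for a library far from the others of its group, made on the named members, 6 stood out, where chance gives about 1 in 20. Mrpl15 held 90.9 CPM in FPC control library 3, below the other controls, and 89.4 CPM in mild FPC library 1, far above the other 3 mild livers. Mild FPC library 1 was also high for Mrpl45 (115.7 CPM), and mild FPC library 2 stood apart for Mrpl17 (158.6 CPM). FPC control library 3 stood apart for Mrpl39 (125.4 CPM) and Mrps22 (28.4 CPM), and it is the deepest of the FPC controls at 6039070.5 counts. With each library left out in turn the advanced FPC change of Mrpl39 ranged from -0.56 to -0.47.

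Changes that differed between the diets by a test of the difference were those of Mrpl39 in advanced livers (-0.48, FPC minus CDAHFD, log2) and of Mrps27 in advanced (-0.43) and mild livers (-0.41). For Mrps27 the 2 control groups themselves differed, and each of the 3 calls was lost when some single libraries were left out.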

How the results depend on the processing

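No paired analysis was possible because no mouse gave more than 1 library and the labels give no number that links mice across groups. Of 57 called results for named members, 35 kept their call in every alternative that was run for them. The cause of the changes below was not tested. Most counts below stand without the share over all genes or peaks in the same setting. They describe how the settings differ and do not set the members apart.

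With TMM on promoter peaks alone, members lower in advanced FPC livers went from 11 to 18 and the median of the members from 0.052 to -0.041. Of all 15686 genes, those lower on FPC went from 4778 to 5884 and the median from 0.0079 to -0.085. Genes higher on FPC went to 11 (respiratory chain), 9 (proteasome) and 8 (other mitochondrial translation lists, 6 on the CDAHFD). Advanced against mild FPC then gave 1 higher and 11 lower, the CDAHFD 0 higher, and controls 0 lower. Promoter peaks, the bulk of which this scaling sets equal, became 14 higher and 18 lower on FPC and 18 and 18 on the CDAHFD. With library totals alone 26 members were higher on FPC (median 0.12), 23 genes of the translation lists, and 1 member for each diet difference. Of all genes 5681 were higher on FPC with library totals (median 0.072), where the main fit gave 4817. limma on the deposited signal gave 31 members higher on FPC (median 0.16, and 0.13 on the CDAHFD), 4 proteasome genes lower on FPC and 19 higher on the CDAHFD, and for the translation lists 25 higher and 10 lower on FPC, 18 and 8 on the CDAHFD. It gave 12 higher and 3 lower in advanced against mild FPC (median 0.13), 2 lower on the CDAHFD, 1 lower for the advanced and 1 higher for the mild diet difference. Cyclic loess gave 1 higher and 2 lower for the mild diet difference. DESeq2 gave 3 higher in advanced against mild FPC and 1 lower between controls, as did relative log expression factors for the controls (1).

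Promoter peaks lower on the CDAHFD were 5 with DESeq2, relative log expression, the deposited signal, the diet arm alone or a mean of at least 100 counts. That filter left distal peaks at 3 higher and 7 lower on FPC and 5 and 8 on the CDAHFD, since fewer peaks were tested. The CDAHFD arm alone gave 0 higher in advanced against mild. With promoter peaks alone the CDAHFD median was -0.045, the translation lists had 8 higher on FPC, advanced against mild gave 2 higher (FPC), 0 higher and 0 lower (CDAHFD), and the mild diet difference 0 lower. Peaks within 10 kb gave 6 cytosolic ribosomal protein genes lower on FPC, 4 proteasome genes lower on the CDAHFD, 4 members lower in mild CDAHFD livers, 3 (FPC) and 2 (CDAHFD) lower in advanced against mild, and diet differences of 1 higher (advanced) and 3 lower (mild).

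Directions turned with promoter peaks alone for Mrpl14 (0.058), Mrpl15 (0.039), Mrpl48 (-0.064), Mrpl12 (-0.0054) and Mrps22 (-0.23) on FPC, and Mrps22 (-0.30) and Mrps34 (-0.045) on the CDAHFD. With peaks within 10 kb they turned for Mrpl14 (0.19 on FPC, 0.13 advanced and 0.015 mild on the CDAHFD) and Mrps22 (-0.15 and -0.25). TMM on promoter peaks turned Mrpl48 on FPC (-0.061) and Mrps34 on the CDAHFD (-0.039), loess Mrpl17 on FPC (0.026) and Mrps34 (-0.037), and the deposited signal Mrpl17 (0.014) and Mrpl44 (0.026) on FPC. Mrpl48 turned without advanced FPC library 2 (-0.018; range with each library left out -0.018 to 0.078), and Mrps34 without advanced CDAHFD library 2 (-0.047) or control library 1 (-0.073; range -0.073 to 0.081).

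With each library left out in turn the FPC median ranged from 0.011 to 0.12 and promoter peaks lower on the CDAHFD from 4 to 9. Counts higher and lower ranged from 1 to 7 and 3 to 6 (advanced against mild FPC), 0 to 1 and 2 to 3 (CDAHFD), 1 to 2 and 0 to 2 (controls), 0 to 1 and 1 to 2 (advanced diet difference), and 0 to 2 and 0 to 3 (mild). Mrpl3 on FPC gained a call without control library 2 (adjusted p = 0.0495) or 4 (0.0392). Members with few counts, such as Mrpl2, Mrps7 and Mrpl3, are limited by depth.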

Other observations

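Peaks farther than 50 kb were left out of the sums, and 5 members had 16 of them: Mrpl15, Mrpl37, Mrps6, Mrps10 and Mrps28. In advanced against control livers 3 were higher and 6 lower on FPC, and 4 and 8 on the CDAHFD. Of all 12040 peaks this far from a start, 19.9% were higher and 41.4% lower on FPC, and 21.9% and 42.5% on the CDAHFD. The largest falls were beyond the single counted peak of Mrpl37, at 50.9 kb (-2.35 on FPC and -1.59 on the CDAHFD) and 54.2 kb (-1.48 and -1.74), while a peak of Mrpl37 at 70.5 kb was higher (1.36 and 0.90). A peak 65.1 kb upstream of Mrps10 fell by 1.29 and 1.11, and one assigned to Mrpl15 at 131.6 kb by 1.37 and 1.43. At such distances the assigned gene is merely the nearest start.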
